A study of Mus musculus with 6 samples.

Results

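The vitamin K-dependent proteins of bone, and the enzymes that carboxylate them, were followed in osteoblasts (OBs) of bone induced by bone morphogenetic protein 2 (BMP-2). The set was defined by gene symbol and not by a rule on measured values, but earlier results of these data were known when it was chosen. It held 7 of the 23284 genes listed per sample, namely *Bglap*, *Bglap2*, *Mgp*, *Gas6*, *Ggcx*, *Vkorc1* and *Vkorc1l1*. All 7 were listed in all 6 samples and all passed the filter on low values, a mean above 0.1 FPKM. FPKM, the number of read fragments scaled to the length of the transcript and to the mapped reads of the library, is a level per length and was the only unit used.

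All samples came from ectopic bone that formed around a collagen sponge carrying 2.5 μg of recombinant human BMP-2 under the skin of male *Col2.3*-ECFP mice aged 12 to 16 weeks. A fragment of the type I collagen promoter drives the cyan fluorescent protein ECFP in these mice, so that any cell with an active fragment can be sorted, and ECFP+ cells were collected after CD45+ and dead cells had been gated out. Day 10 and day 14 after implantation had 3 samples each, called biological replicates by their titles, and the question was how OBs differ between an earlier and a later stage of the induced bone. Cells were freed with trypsin (0.25%, 15 min) followed by collagenase II (0.2%, 40 min a round), in 1 collagenase round on day 10 and in 2 on day 14, so the time point and the digestion cannot be told apart. Day 14 replicates 2 and 3 carry day 15 and day 16 in their descriptions, and their titles, which say day 14, were followed. The number of animals behind each sample was not given in the sources used here.

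Osteocalcin, matrix Gla protein (MGP) and growth arrest-specific 6 (GAS6) are secreted proteins that carry gamma-carboxyglutamic acid (Gla), a modified glutamate that binds calcium. Gamma-glutamyl carboxylase adds the extra carboxyl group in the endoplasmic reticulum and uses up reduced vitamin K, which vitamin K epoxide reductase, the target of warfarin, regenerates. Osteocalcin is the classic product of mature OBs and binds bone mineral, MGP keeps soft tissue and cartilage from calcifying, and GAS6 is a ligand of the TAM receptor tyrosine kinases. RNA levels carry no information on how far the proteins were carboxylated.

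Osteocalcin is made from near-identical gene copies in the mouse, and the sequences are shown because they set how far the copies can be told apart. In the GENCODE vM21 annotation of mm10 (GRCm38), *Bglap* (ENSMUSG00000074483.2) lies on the minus strand of chromosome 3 from 88383501 to 88384464. *Bglap2* (ENSMUSG00000074486.2) lies on the same strand from 88377736 to 88378699, with 4801 bases between the genes. The coding sequences, joined from 4 coding exons each within chr3:88383638-88384415 and chr3:88377873-88378650, both hold 285 bases without the stop codon, and capitals mark the bases that differ:
Bglap: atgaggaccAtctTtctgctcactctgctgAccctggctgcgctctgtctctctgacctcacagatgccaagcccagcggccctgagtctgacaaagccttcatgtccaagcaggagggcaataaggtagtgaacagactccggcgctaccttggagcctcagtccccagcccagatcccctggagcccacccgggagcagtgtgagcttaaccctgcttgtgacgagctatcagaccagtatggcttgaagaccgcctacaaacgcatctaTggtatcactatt
Bglap2: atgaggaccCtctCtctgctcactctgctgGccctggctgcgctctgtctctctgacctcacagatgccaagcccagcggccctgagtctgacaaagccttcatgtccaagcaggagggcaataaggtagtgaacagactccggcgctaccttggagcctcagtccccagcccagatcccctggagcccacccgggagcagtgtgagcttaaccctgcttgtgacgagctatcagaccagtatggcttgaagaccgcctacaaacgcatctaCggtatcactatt

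The copies were identical at 281 of the 285 coding bases (98.6%). The 4 differences were A10C, T14C, A31G and T273C, with the *Bglap* base first, the *Bglap2* base last and positions counted from 1 at the first base of the start codon. Of the 366 windows of 75 bases in the longest *Bglap* transcript, 75 bases being the read length, 242 (66.1%) also stood in another annotated gene, leaving 124 that did not. In *Bglap2*, 291 of 397 windows (73.3%) were shared. How reads that map to both copies were divided was not given in the sources used here, so the values of each copy are uncertain, and their sum was analysed beside them.

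The third copy, *Bglap3*, lies 4992 bases from *Bglap2* and is known from kidney rather than bone. It was listed at 0 FPKM in 4 of the 6 samples, at 0.451 FPKM in day 10 replicate 2 and at 1.25 FPKM in day 14 replicate 2. Those are the samples with the highest osteocalcin of their day, and 60 of the 643 windows of *Bglap3* were shared with the other two copies. The values rested on few reads, an estimated 1.2 to 4.5 in day 10 replicate 2 and 3.7 to 13.7 in day 14 replicate 2. Whether those reads came from the other copies was not tested. By the listed values, nearly all osteocalcin RNA was assigned to *Bglap* and *Bglap2*.

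The 250 bases before the *Bglap* start in RefSeq, at chr3:88384467-88384716 of GRCm38.p6 on the minus strand, are shown because they are the textbook example of an OB promoter. Capitals mark ACCACA, the core element of RUNX factors, at -132 from the start, and TATAAA, the TATA box, at -27:
Bglap promoter: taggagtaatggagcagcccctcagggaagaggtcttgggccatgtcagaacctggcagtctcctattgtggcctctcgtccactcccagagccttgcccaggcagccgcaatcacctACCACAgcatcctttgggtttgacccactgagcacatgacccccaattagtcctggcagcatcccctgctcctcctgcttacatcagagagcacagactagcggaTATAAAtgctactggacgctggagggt

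Of the 27025 promoters in the RefSeq table, 14.2% held ACCACA and 13% held TATAAA on either strand within the same 250 bases. Neither motif stood in the same window of *Gas6*, *Ggcx*, *Vkorc1* or *Vkorc1l1*. Those 4 windows each held the GC box GGGCGG, which 32.9% of all promoters held and which the *Bglap* window did not. A match describes the letters of a window and was not tested as a binding site.

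The levels of *Bglap* spread widely within each day. On day 10, *Bglap* stood at 582, 2086 and 183 FPKM in replicates 1, 2 and 3. On day 14 it stood at 302, 530 and 110 FPKM. Replicate 2 was the highest and replicate 3 the lowest of each day, and the days overlapped. *Bglap2* had the same order of samples, with 317, 863 and 86.4 FPKM on day 10 and 136, 192 and 26.9 FPKM on day 14. *Bglap* was above *Bglap2* in every sample, by 1.83-, 2.42- and 2.12-fold on day 10 and by 2.23-, 2.76- and 4.09-fold on day 14.

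Summed over both copies, osteocalcin RNA was 899, 2949 and 270 FPKM on day 10 and 438, 722 and 137 FPKM on day 14. The mean was 1373 ± 1401 FPKM (SD, n = 3) on day 10 and 432 ± 293 FPKM (SD, n = 3) on day 14. An estimated 106 to 1565 reads lay behind *Bglap* and 48.8 to 1214 behind *Bglap2* in a sample if all came from the shortest transcript, so counting error was small beside the spread. The spread within day 10 was 10.9-fold from the lowest to the highest sample. The difference between the days was smaller, at 2.55-fold in the fit on a log2 scale that follows, which is not the ratio of these means. On the scale of log2(FPKM + 0.1), on which all fold changes below were fitted, day 14 minus day 10 was -1.35 (SE 0.86, 95% interval -3.33 to 0.63). The adjusted p was 0.668 by limma with day as the only term and Benjamini-Hochberg adjustment over all genes tested. No difference was therefore detected, and the interval spans both a large decrease and a small increase. With the replicate number as a block in the same fit, the adjusted p was 0.187. The unadjusted p by limma was 0.155 without the block and 0.0020 with it, so it depended strongly on the model. The difference rested on single samples, being -0.49 without day 10 replicate 2, -0.67 without day 14 replicate 3 and -2.21 without day 10 replicate 3. Taken alone, *Bglap* differed by -1.22 (SE 0.85, adjusted p = 0.705) and *Bglap2* by -1.69 (SE 0.91, adjusted p = 0.595) in the same limma fit. Since these are bulk samples, fewer cells that express a gene and less RNA per cell cannot be told apart, here and below.

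MGP, the inhibitor of calcification, showed the opposite order of the days with little spread. *Mgp* (chromosome 6, 136872435 to 136875823, minus strand) stood at 466, 441 and 421 FPKM on day 10. On day 14 it stood at 1083, 1270 and 1351 FPKM. All 3 day 14 samples exceeded all 3 day 10 samples by more than the whole range of either day, and the coefficient of variation was 5.04% on day 10 and 11.1% on day 14. The mean went from 443 ± 22.3 FPKM to 1235 ± 138 FPKM (SD, n = 3 each), a 2.78-fold higher level on day 14 and a log2 difference of 1.47 (SE 0.20, 95% interval 1.01 to 1.93).

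The unadjusted p of *Mgp* was 6.44e-05 in the limma fit, rank 9 among the 19526 genes tested, and the adjusted p was 0.140. It therefore missed the threshold of 0.05 after adjustment. The two-sided exact permutation test gave p = 0.1, which is the smallest value 3 samples against 3 can give. Left out in turn, no single sample moved the log2 difference outside 1.41 to 1.57, whereas the adjusted p ranged from 0.0509 without day 14 replicate 2 to 0.718 without day 10 replicate 1. In the 1 transcript searched of each of *Mgp*, *Gas6* and *Ggcx*, of 617, 2548 and 2929 bases, no window of 75 bases stood in another annotated gene.

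*Gas6* (chromosome 8, 13465374 to 13494490, minus strand), whose product carries a Gla domain and binds AXL, MERTK and TYRO3, was also higher in every day 14 sample. Its day 10 samples held 134, 205 and 212 FPKM. Its day 14 samples held 411, 574 and 391 FPKM. The lowest day 14 sample was above the highest day 10 sample. The mean was 184 ± 43.1 FPKM on day 10 and 459 ± 100.4 FPKM on day 14 (SD, n = 3 each), a 2.51-fold higher level and a log2 difference of 1.33 (SE 0.24, 95% interval 0.78 to 1.88). The adjusted p was 0.268 by limma, the unadjusted p was 0.000494 (rank 36), and the two-sided exact permutation test gave 0.1. The reads carried no strand, and 34 exon bases of *Gas6* overlap *Tmem255b* on the opposite strand.

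**Figure D1:**
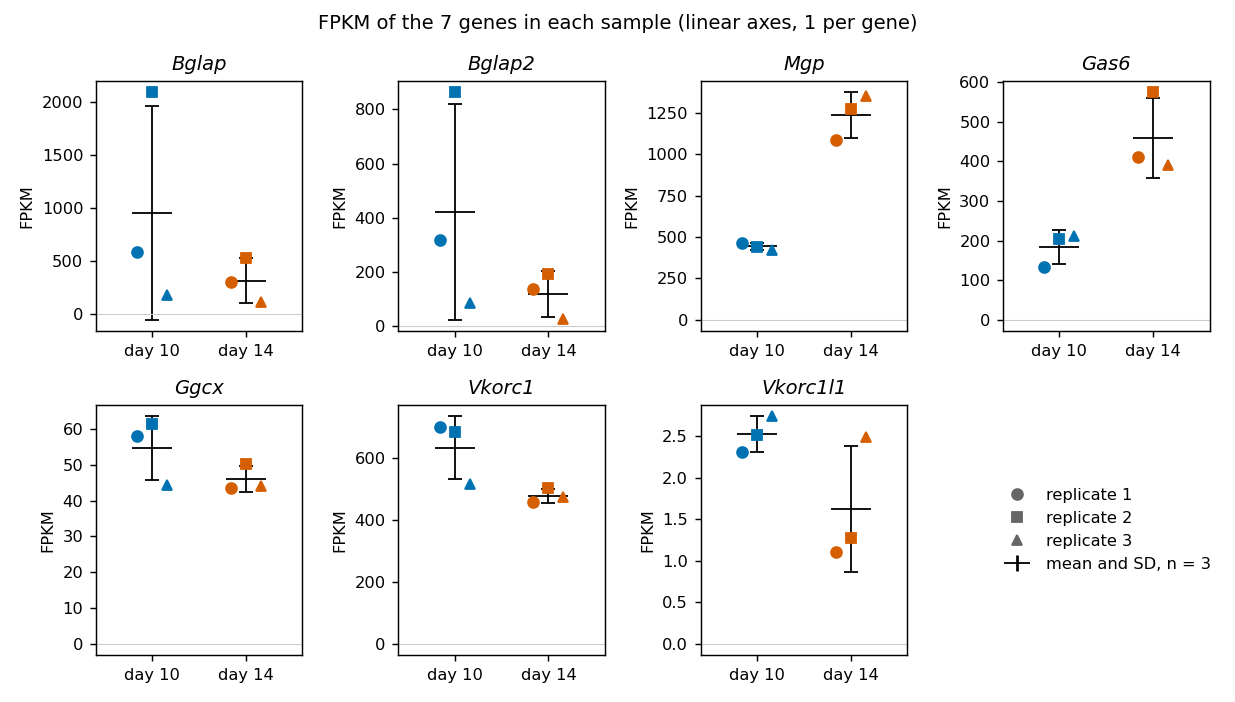
FPKM of each of the 7 genes on a linear axis of its own, with 1 point per sample (shape gives the replicate number), a horizontal line for the mean and bars for the SD of the 3 samples of a day. *Mgp* and *Gas6* separate the days, whereas the points of *Bglap* and *Bglap2* overlap between the days and spread most on day 10, where the SD of *Bglap* exceeds its mean.

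The fitted differences of the enzymes were smaller in size than those of the Gla proteins. *Ggcx*, the only gamma-glutamyl carboxylase gene (chromosome 6, 72414308 to 72430712, plus strand), had 58.1, 61.4 and 44.4 FPKM on day 10 against 43.6, 50.3 and 44.1 FPKM on day 14. The days overlapped. The mean was 54.6 ± 8.98 FPKM on day 10 and 46.0 ± 3.73 FPKM on day 14 (SD, n = 3 each). The log2 difference of -0.24 (SE 0.17, 95% interval -0.62 to 0.15) had an adjusted p of 0.708 by limma.

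*Vkorc1*, the vitamin K epoxide reductase of the classic cycle (chromosome 7, 127893063 to 127895617, minus strand), was an abundant transcript. Day 10 gave 700, 682 and 515 FPKM, and day 14 gave 457, 501 and 474 FPKM. All 3 later samples lay below all 3 earlier ones, with day 10 replicate 3 nearest to the later samples. The mean was 633 ± 102 FPKM on day 10 and 478 ± 22.3 FPKM on day 14 (SD, n = 3 each), a 1.31-fold lower level. The log2 difference was -0.39 (SE 0.20, 95% interval -0.85 to 0.07), with an adjusted p of 0.573 by limma and a two-sided exact permutation p of 0.1. Of its 674 windows of 75 bases, 48.7% also stood in *Gm21974*, a gene model on the same strand that shares 401 exon bases with it.

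*Vkorc1l1* (chromosome 5, 129941970 to 129986692, plus strand) encodes the paralogous reductase. Its values were low, with 2.31, 2.51 and 2.74 FPKM on day 10 and 1.10, 1.27 and 2.49 FPKM on day 14. Day 14 replicate 3 lay within the day 10 values, so the days overlapped. The mean was 2.52 ± 0.217 FPKM on day 10 and 1.62 ± 0.758 FPKM on day 14 (SD, n = 3 each). The log2 difference was -0.69 (SE 0.36, adjusted p = 0.586 by limma). Its values rested on few reads, an estimated 23.0 to 98.0 per sample if all came from the longest transcript and 2.0 to 8.4 if all came from the shortest.

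*Vkorc1* made up 99.5% to 99.8% of the summed FPKM of both reductases in every sample. The coding sequences of the paralogs were 53.7% identical, and the 1 transcript compared of each, of 748 and 3112 bases, shared no window of 75 bases. Of the 3038 windows of *Vkorc1l1*, 351 (11.55%) also stood in the gene models *Gm5417* or *Gm5418*. The linear ratio of *Vkorc1* to *Vkorc1l1* was 291, 261 and 181 on day 10 and 381, 366 and 183 on day 14. These overlapped, and the log2 ratio differed by 0.30 between the days (two-sided exact permutation p = 0.5, n = 3 each).

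Among the 7 genes, 0 passed an adjusted p of 0.05, against 0.0154% (3 genes) of the 19526 tested by limma. An unadjusted p under 0.05 was reached by 2 of the 7, *Mgp* and *Gas6*, both higher on day 14, against 5.60% of all genes tested in that direction and 10.0% in either. None of the 7 was lower with an unadjusted p under 0.05, against 4.40% of all genes tested. The days did not overlap for 3 of the 7, against 14.3% of all genes tested. *Mgp* and *Gas6* lay above on day 14, against 7.59% of all genes, and *Vkorc1* lay below, against 6.67%. The balance over all genes with an unadjusted p under 0.05, 1094 higher and 860 lower, was 899 and 967 with equal total FPKM and 1023 and 1536 without day 14 replicate 1. The median log2 difference was -0.39 over the 7 genes and -0.04 over all genes tested. With 7 genes these counts are a description of the genes named.

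On day 10 the order of the mean levels was *Bglap*, *Vkorc1*, *Mgp*, *Bglap2*, *Gas6*, *Ggcx* and *Vkorc1l1*. *Bglap* ranked 39 of the 23284 genes on day 10 and 184 on day 14, whereas *Mgp* ranked 101 on day 10 and 38 on day 14. On day 14 *Mgp* stood first, followed by *Vkorc1*, *Gas6*, *Bglap*, *Bglap2*, *Ggcx* and *Vkorc1l1*. Over the 3 samples of each day, the ranges of neighbours among *Bglap*, *Vkorc1*, *Mgp* and *Bglap2* on day 10 overlapped except those of *Vkorc1* and *Mgp*. On day 14 the ranges of *Vkorc1*, *Gas6* and *Bglap* overlapped, those of *Bglap* and *Bglap2* overlapped, and *Mgp* stood clear of all. *Ggcx* lay below *Gas6* and above *Vkorc1l1* in every sample.

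The mix of Gla protein transcripts therefore differed between the samples. Osteocalcin made up 60.0%, 82.0% and 29.9% of the summed FPKM of *Bglap*, *Bglap2*, *Mgp* and *Gas6* on day 10. On day 14 it made up 22.7%, 28.1% and 7.29%. *Mgp* made up 31.1%, 12.3% and 46.7% on day 10 and 56.0%, 49.5% and 71.9% on day 14. Every day 14 sample had a lower share of osteocalcin and a higher share of *Mgp* than every day 10 sample, with day 10 replicate 3 closest to day 14. The share of *Gas6* overlapped between the days, from 5.70% to 23.4% on day 10 and from 20.8% to 22.4% on day 14.

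**Figure D2:**
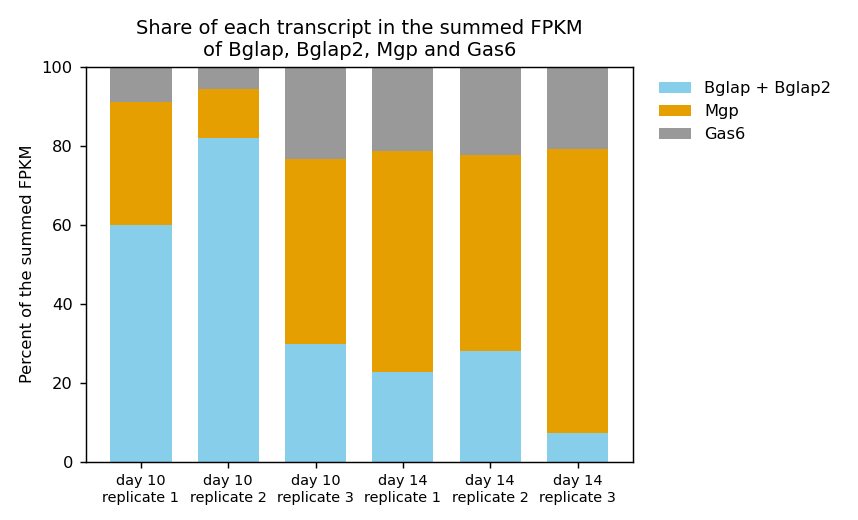
Stacked bars of the percent of the summed FPKM of *Bglap*, *Bglap2*, *Mgp* and *Gas6* in each of the 6 samples. Osteocalcin, from 29.9% to 82.0% on day 10, makes up 7.29% to 28.1% on day 14, and *Mgp* takes the largest share in all 3 day 14 samples and in day 10 replicate 3.

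A ratio within a sample does not depend on the scaling between samples. Summed osteocalcin over *Mgp* was 1.93, 6.68 and 0.640 on day 10 and 0.404, 0.568 and 0.101 on day 14, below all day 10 values. The mean log2 ratio was 1.01 ± 1.69 on day 10 and -1.81 ± 1.32 on day 14 (SD, n = 3 each), a 7.07-fold lower ratio on day 14. The two-sided exact permutation p was 0.1, the smallest possible, and 0.4 after Benjamini-Hochberg adjustment over the 4 ratios tested. The log2 difference of the ratio, -2.82, was -1.96 without day 10 replicate 2 and -3.65 without day 10 replicate 3.

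Relative to *Col1a1*, whose promoter fragment drives the reporter, osteocalcin did not separate the days. The log2 ratio differed by -0.75 (two-sided exact permutation p = 0.5, n = 3 each), and by -0.11 without day 10 replicate 2. *Ggcx* over *Col1a1* differed by 0.36 on the log2 scale (two-sided exact permutation p = 0.2, n = 3 each).

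Other Gla proteins were examined from a list of 12 genes, of which 11 passed the filter on low values. None passed an adjusted p of 0.05, and 2 had an unadjusted p under 0.05 by limma, both higher on day 14, against 5.60% of all genes tested in that direction. *Pros1*, encoding protein S, the other Gla protein that binds TAM receptors, had 54.8, 75.3 and 84.6 FPKM on day 10 against 120, 116 and 129 FPKM on day 14. Its days did not overlap, and its log2 difference was 0.79 (SE 0.19, adjusted p = 0.305 by limma). *Prrg3*, a transmembrane Gla protein, had a mean of 3.73 ± 1.31 FPKM on day 10 and 6.90 ± 1.82 FPKM on day 14 (SD, n = 3 each; adjusted p = 0.416 by limma), also without overlap.

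The clotting factor genes *F2*, *F7*, *F9* and *F10*, typical of liver, stayed at or below 1.81 FPKM in every sample. *Ucma*, a Gla-rich protein of cartilage, ranged from 0 to 1.26 FPKM. Of the Gla protein genes named here, *Bglap*, *Bglap2*, *Mgp*, *Gas6* and *Pros1* thus had the highest means on both days.

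Genes that reduce, make or carry vitamin K formed a list of 6, all above the filter. *Lrp1*, an uptake receptor for lipoproteins that carry vitamin K, had a mean of 60.7 ± 8.54 FPKM on day 10 and 86.7 ± 14.6 FPKM on day 14 (SD, n = 3 each) without overlap (log2 difference 0.51, adjusted p = 0.403 by limma). It was the only one of the 6 with an unadjusted p under 0.05, against 10.0% of all genes tested. *Calu*, encoding calumenin, an inhibitor of the carboxylase, overlapped at 471 ± 20.6 and 521 ± 80.8 FPKM.

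Of the receptors of GAS6, *Axl* was the most abundant, with 26.1, 26.7 and 42.3 FPKM on day 10 against 76.7, 38.9 and 102 FPKM on day 14. Day 14 replicate 2, the sample with the highest *Gas6*, had the lowest *Axl* of its day and lay within the day 10 range. The log2 difference was 1.12 (SE 0.35, adjusted p = 0.361 by limma). *Mertk* (1.99 to 12.5 FPKM) and *Tyro3* (1.12 to 3.05 FPKM) overlapped between the days.

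Regulators of the osteocalcin promoter, its propeptide protease and its proposed receptor made up a list of 10. The list counted 3 with an unadjusted p under 0.05, all lower on day 14 (against 4.40% of all genes tested), none with an adjusted p under 0.05, and a median log2 difference of -0.63 against -0.04 over all genes tested. *Sp7*, encoding osterix, was lower in every day 14 sample, at 73.7, 51.1 and 40.1 FPKM on day 10 and 9.79, 27.9 and 4.09 FPKM on day 14 (log2 difference -2.34, SE 0.59, adjusted p = 0.309 by limma). *Dlx5* overlapped (log2 difference -1.91, adjusted p = 0.460 by limma), as did *Runx2* (log2 difference -0.83, adjusted p = 0.528 by limma). The order of samples in *Sp7* was not that of osteocalcin on day 10, since day 10 replicate 1 and not replicate 2 had the highest *Sp7*, whereas *Runx2* and *Vdr*, encoding the vitamin D receptor, had the osteocalcin order on both days.

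*Atf4*, another activator of *Bglap*, was slightly above on day 14 in every sample, at 93.3 ± 4.15 and 114 ± 17.5 FPKM (SD, n = 3 each; log2 difference 0.28, adjusted p = 0.607 by limma). *Furin*, which cleaves the propeptide of osteocalcin, overlapped between the days, and *Gprc6a*, a proposed osteocalcin receptor, stayed between 0 and 1.07 FPKM.

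**Figure D3:**
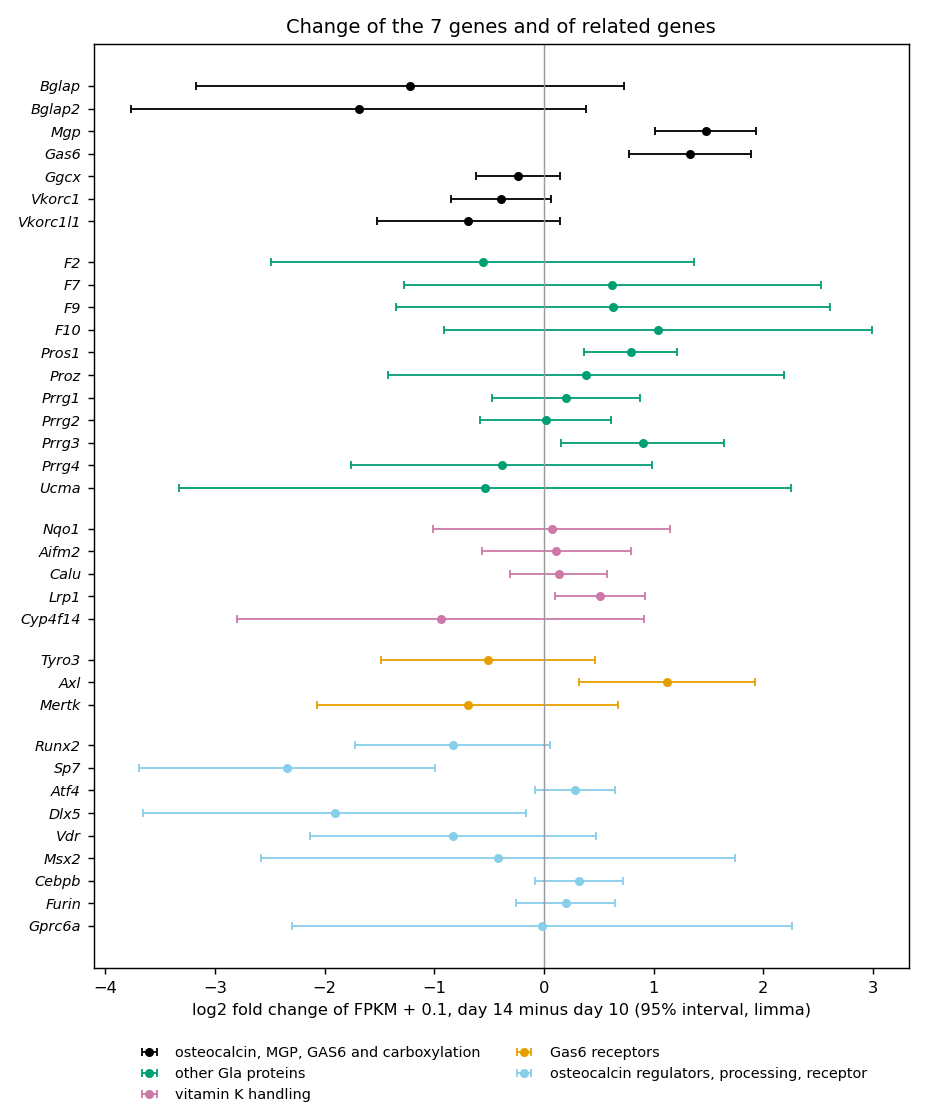
log2 fold change of FPKM + 0.1, day 14 minus day 10, with 95% intervals from limma, for the 7 genes (black) and further genes of 4 related lists, grouped by colour. The intervals of *Mgp*, *Gas6*, *Pros1*, *Prrg3*, *Lrp1* and *Axl* lie above 0 and those of *Sp7* and *Dlx5* below 0, all without adjustment for the number of genes tested.

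Markers of OBs and of other cells were also read. All 8 OB markers were above 0 in every sample, but so were 16646 to 19698 of the 23284 genes listed, so presence alone does not identify OBs. *Col1a1*, whose promoter fragment drives the reporter used for the sort, stood between 14151 and 34157 FPKM. The median log2 difference of the 8 markers was -1.06. With an unadjusted p under 0.05 by limma, 2 of the 8 were lower on day 14, against 4.40% of all genes tested. None was higher, against 5.60%. The 2 were *Sp7* and *Dlx5*, which the list of osteocalcin regulators above also counted. *Ibsp*, encoding bone sialoprotein, had 25254, 15910 and 10072 FPKM on day 10 against 3460, 15632 and 1293 FPKM on day 14. *Alpl*, encoding alkaline phosphatase, had 1129, 1055 and 809 FPKM on day 10 against 273, 1300 and 186 FPKM on day 14. Day 14 replicates 1 and 3 were below all day 10 samples in both genes and replicate 2 was not, whereas *Mgp* and *Gas6* were higher in all 3. The part of these markers in the results above was not tested. Markers of other cells were also present and are given because several moved with the genes above. *Dmp1* and *Phex*, genes of late OBs and osteocytes, had the same order of samples as osteocalcin within each day, as did the OB genes *Col1a1*, *Col1a2*, *Sparc*, *Runx2* and *Vdr*. The OB markers *Ibsp*, *Alpl*, *Sp7* and *Dlx5* did not have it on day 10. The order was not particular to such genes, since *Mertk* and the hypertrophic chondrocyte marker *Col10a1* also had it on both days. Its share over all genes was not determined. *Dmp1* had 780, 949 and 168 FPKM on day 10 against 158, 423 and 36.1 FPKM on day 14. The other 4 osteocyte markers, *Mepe*, *Sost*, *Fgf23* and *Pdpn*, did not follow that order. *Sost* did not exceed 1.24 FPKM, and *Pdpn* had a higher mean on day 14, at 70.8 ± 8.50 and 112 ± 42.2 FPKM (SD, n = 3 each; adjusted p = 0.491 by limma). The part of such cells in the osteocalcin values was not tested.

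The 11 chondrocyte markers summed to 777 to 1560 FPKM on day 10 and to 230, 2422 and 193 FPKM in day 14 replicates 1, 2 and 3. Cartilage is a known source of MGP. *Mgp* was above day 10 in every day 14 sample, and *Col2a1* was at 12.1, 688 and 8.75 FPKM in day 14 replicates 1, 2 and 3. *Sox9* was at 32.9, 62.7 and 33.7 FPKM there, against 45.1, 34.3 and 38.0 FPKM on day 10. *Sox9* and *Matn3* had log2 differences of 0.08 and 0.19, and the other chondrocyte markers had negative ones. The part of cartilage cells in the *Mgp* values was not tested.

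The 7 myeloid markers summed to 29.3 to 117 FPKM on day 10 and to 209, 11.5 and 529 FPKM on day 14, with *Lyz2* at 160, 6.35 and 454 FPKM and *Ptprc*, encoding CD45, at 2.99, 0.134 and 2.81 FPKM. *Gas6* was highest, at 574 FPKM, in day 14 replicate 2, where the myeloid sum was lowest. The GAS6 receptor gene *Axl* and the fibroblast gene *Pi16* were instead higher in day 14 replicates 1 and 3 than in replicate 2, as the myeloid sum was. The 7 smooth muscle and pericyte markers summed to 359 to 792 FPKM on day 10 and 518 to 672 FPKM on day 14, most of it *Acta2* and *Tagln*, with *Myh11* at or below 0.65 FPKM. *Notch3*, of the same list, was higher in every day 14 sample at low levels, with 0.976, 2.49 and 1.84 FPKM on day 10 against 3.67, 4.81 and 3.60 FPKM on day 14 (adjusted p = 0.347 by limma). *Rgs5*, *Tagln* and *Acta2* also had positive log2 differences (1.16, 0.63 and 0.30), with overlap of the days. *Cspg4*, *Cnn1* and *Myh11* had negative ones (-0.96, -0.55 and -0.15), also with overlap. The 6 fibroblast markers summed to 3072 to 4217 FPKM and 3213 to 5441 FPKM, most of it *Dcn* and *Lum*, and their median log2 difference was 0.70. *Cd34*, *Dpt* and *Pi16* had higher means on day 14 (24.0 to 56.5, 31.3 to 76.3 and 16.3 to 47.9 FPKM), with overlap of the days in each.

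The 7 endothelial markers summed to 1.56 to 2.99 FPKM on day 10 and 3.36 to 6.03 FPKM on day 14, higher in every day 14 sample but near the floor, which was 0.386 to 0.659 FPKM for 3 reads per kilobase of transcript. The 6 osteoclast markers summed to 428 to 463 FPKM and 601 to 653 FPKM, almost all of it *Ctsk*, while *Calcr* did not exceed 0.338 FPKM. *Ctsk* alone of the list had a positive log2 difference (0.53). *Acp5*, *Calcr*, *Ocstamp*, *Dcstamp* and *Oscar* had negative ones (-0.05, -0.31, -0.93, -0.93 and -1.62), and the median over the list was -0.62. The 4 hypertrophic markers summed to 361 to 728 FPKM and 347 to 1573 FPKM. *Mmp13* had the higher mean on day 14 (log2 difference 1.14), whereas *Panx3*, *Ihh* and *Col10a1* had log2 differences of -2.05, -2.40 and -2.14, none with an adjusted p under 0.05 by limma. Adipocyte markers summed, almost all of it *Fabp4*, to 8.88 to 17.3 FPKM and 15.2 to 30.8 FPKM, and skeletal muscle markers to at most 9.12 FPKM. How far any of these cells contributed to *Mgp* or *Gas6* was not tested.

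**Figure D4:**
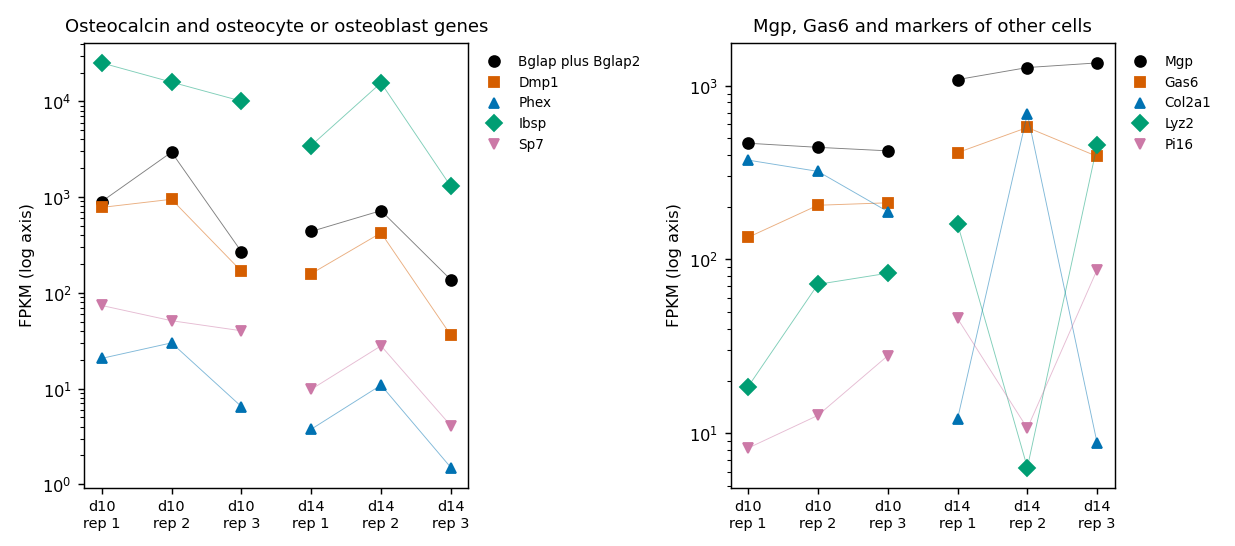
FPKM on log axes in the 6 samples (d10 and d14 are the days, rep the replicate; lines only join the points of a gene within a day). Left, osteocalcin (*Bglap* plus *Bglap2*) follows *Dmp1* and *Phex* in its order of samples within each day, and *Ibsp* and *Sp7* do not on day 10. Right, *Mgp* and *Gas6* are higher in all 3 day 14 samples, whereas *Col2a1*, *Lyz2* and *Pi16* differ between day 14 replicate 2 and the other two.

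Among the genes most like *Bglap* over the 6 samples, by Pearson's r of log2(FPKM + 0.1) among the 4599 other genes with a mean of at least 10 FPKM, were *Gps2* (r = 0.977) and *Gm6251* (r = 0.964). Their amplitude was far smaller, since *Gps2* ranged only from 8.25 to 15.6 FPKM while *Bglap* ranged from 110 to 2086 FPKM. The genes most like *Mgp* were *Clcc1* (r = 0.997), *Ctsk* (r = 0.997) and *Ndel1* (r = 0.991). *Ctsk*, the collagen-degrading cathepsin K, had 414, 425 and 403 FPKM on day 10 against 574, 600 and 614 FPKM on day 14, in the same order as *Mgp* on day 14. For *Mgp*, 138 genes had r above 0.9, and 35 did for *Bglap*. With 6 points that fall into 2 days, a high r is easily reached, and these values are a description.

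Depth did not separate the days. From the step that 1 read makes in the low FPKM values, the libraries were estimated to hold 4550000 to 7775000 reads, with 16646 to 19698 genes above 0. Day 10 replicate 3, which had the lowest osteocalcin of its day, had the most reads, and day 14 replicate 2 had the fewest genes above 0.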

How the data were processed

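RNA-seq values of ECFP+ OBs were analysed for 3 samples of day 10 and 3 of day 14. The authors mapped 75-base single-end reads from SMART-Seq cDNA to mm10 and deposited FPKM per gene, 1 file per sample. The submitters' processing notes name TopHat2 2.0.13, Bowtie2 2.2.3, SAMtools 0.1.19 and Cufflinks 2.2.1. The gene annotation and the treatment of multiply mapping reads were not given in the sources used here. In day 14 replicate 2, 25 symbols that had become dates were restored from the row order, which all files share.

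Genes with a mean above 0.1 FPKM (19526 of 23284) were fitted as log2(FPKM + 0.1) with limma 3.58.1 in R 4.3.3, with a mean-variance trend, day as the only term and Benjamini-Hochberg adjustment at a threshold of 0.05. A pseudocount understates the fold change of low genes. Ratios and single values were tested by two-sided exact permutation with SciPy 1.17.1. The fit was tested on simulated data. Alternatives were other pseudocounts, filters and scalings, no trend, a replicate block, the sum with *Bglap3* and leaving out each sample. Depth was estimated from 1990 single-transcript genes assuming fragments of 215 bases, with 74.6% to 79.4% of low values within 0.1 of a whole read, so read numbers are approximate.

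The members, lists and named genes were chosen with earlier results of these data known. Named genes were the 7 members, *Bglap3*, the genes with the smallest unadjusted p of each list (up to 4), markers at or near 0, and the 3 genes most like *Bglap* and *Mgp*. Further list genes named beside them, such as *Runx2*, *Furin*, *Dmp1* and *Pi16*, were chosen after their values were seen. Single values of a few list genes are not reported here, and the counts of their lists include them. Coordinates and coding sequences came from GENCODE vM21 and the promoter from RefSeq. Promoters were searched on both strands for the RUNX core ACCACA, the TATA box TATAAA, the vitamin D element GGGTGA, the E-box CANNTG, the CCAAT box and the GC box GGGCGG. The vitamin D element stood in 13.5%, the E-box in 66% and the CCAAT box in 34.5% of the 27025 promoters. The E-box is its own reverse complement.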

Additional observations from a re-analysis of the deposited data

How the results depend on the processing

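The direction of each of the 7 genes, the osteocalcin sum and the 4 ratios was the same under every alternative that was run. The adjusted p of the 7 genes and the sum stayed above 0.05 in each. The exact p of the ratios could not fall below 0.1 in any setting and says nothing of their stability. Without 1 sample at a time, 937 to 2559 genes had an unadjusted p under 0.05 in limma, against 1954 with all samples, and 3 to 76 had an adjusted p under 0.05, against 3. The 76 came without day 14 replicate 2, and the 937 without day 10 replicate 1. Of the 7 genes, 2 to 5 then had an unadjusted p under 0.05, against 2 with all samples. The 5 came without day 10 replicate 3, where 1972 of the 19509 genes tested had an unadjusted p under 0.05. Over all genes tested, samples with the same replicate number did not deviate together (r = 0.0580, -0.00584 and 0.0887 for numbers 1, 2 and 3). The numbers were therefore not taken as pairs, although *Bglap* and *Bglap2* had the same order of replicate numbers on both days. With the number as a replicate block, 4 of the 7 genes had an unadjusted p under 0.05, namely *Bglap*, *Bglap2*, *Mgp* and *Gas6*, and 0 an adjusted p under 0.05. In that fit the osteocalcin sum had an adjusted p of 0.187 and *Mgp* and *Gas6* 0.140. The cause of these shifts was not tested. Over all alternatives the log2 difference ranged from 1.41 to 1.57 for *Mgp* and from 1.12 to 1.45 for *Gas6*, with an unadjusted p under 0.05 in all 14, from -2.21 to -0.49 for the osteocalcin sum, and from -3.65 to -1.96 for its ratio to *Mgp*. The 3 samples a day limit what the osteocalcin values can show, and an estimated 23.0 to 98.0 reads a sample (longest transcript) or 2.0 to 8.4 (shortest) limit *Vkorc1l1*.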
